A study of Rattus norvegicus with 8 samples.

Results

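The terminal segment of rat chromosome 5 comprised the array probes placed at position 160000000 or beyond on assembly rn4, up to the last probe at 173083399. It held 391 (501 spots) of the 45598 distinct non-control probes on the array and named 292 genes. The segment was selected on the measured difference between late and early passage, so every comparison of the 2 passages in it is a description, with no test. The cells were NR8383, a macrophage line established from the lung lavage of a normal rat. RNA was taken at passage 20 (P20) and at passage 200 (P200), with 4 biological replicates each, and hybridised to 8 single-colour Agilent arrays. Both groups were the same line with no added agent or genetic change in the labels, seeded for 48 h before harvest, and the labels do not say whether the replicates of a passage came from separate lineages. The comparison asks how expression in this line differs after long culture.

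The end of rat chromosome 5 shares its gene order with the end of the short arm of human chromosome 1. It is gene-dense and mixes unrelated functions, among them Wnt and TGF-beta signalling, mitochondrial translation, RNA processing and receptors of the tumour necrosis factor family. Agrn encodes agrin, a heparan sulphate proteoglycan that organises the neuromuscular junction. Ski encodes a repressor of SMAD proteins, which carry TGF-beta signals, and Dvl1 encodes dishevelled, which relays Wnt signals.

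Values are log2 processed signal less the 75th percentile of the same array, and a change is P200 minus P20 on that log2 scale, given with the moderated standard error (SE, n = 4 per group). A gene entered the fit when at least 1 passage had a probe of it well above background on each of its 4 arrays. Of the segment's genes, 146 passed and 146 did not, and 153 of its 391 probes were above background on 0 arrays. No segment probe was above background on all arrays of one passage and on none of the other. Agrn, Ski and Dvl1, which mark the segment, were above background on all 8 arrays. Of 10 macrophage markers, 8 were above background on all 8 arrays. Adgre1 was above it on none and Marco on 1. The lung epithelial markers Sftpc, Epcam and Cdh1, the lymphocyte marker Cd3e and the neutrophil marker Mpo were above background on at most 1 array. The fibroblast gene Dcn and the endothelial gene Cdh5 were above it on all 8 arrays, while Col1a1 and Kdr were above it on 0. In bulk RNA, a different share of cells expressing a gene and a different amount of RNA per cell cannot be told apart.

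The raised stretch began between the probes of LOC500594 and Nphp4 and contained Prxl2b, Ski, Dvl1 and Agrn. The following sequences show the probes around that edge, which moved under some settings, and identify the 4 genes described most fully. The first set holds the 60-base probes on assembly rn4, in capitals throughout, 5′ to 3′ as the array files give them, in map order. The positions are chr5:169621738-169621797 (minus strand) for Kcnab2, chr5:169689058-169689117 (plus) for LOC500594, chr5:169797302-169797361 (plus) for Nphp4, chr5:170747549-170747608 (plus) for C5h1orf174, chr5:171705921-171706285 (minus, spanning a gap) for Prxl2b, chr5:171955057-171955116 (minus) for Ski, chr5:172717433-172717492 (plus) for Dvl1 and chr5:172999463-172999522 (minus) for Agrn.
Kcnab2 probe: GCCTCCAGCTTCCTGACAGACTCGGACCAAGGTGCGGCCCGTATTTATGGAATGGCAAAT
LOC500594 probe: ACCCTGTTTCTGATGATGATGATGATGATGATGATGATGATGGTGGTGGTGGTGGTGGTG
Nphp4 probe: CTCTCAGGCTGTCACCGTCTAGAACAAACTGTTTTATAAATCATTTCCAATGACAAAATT
C5h1orf174 probe: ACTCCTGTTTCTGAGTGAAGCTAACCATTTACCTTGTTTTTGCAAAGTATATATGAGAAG
Prxl2b probe: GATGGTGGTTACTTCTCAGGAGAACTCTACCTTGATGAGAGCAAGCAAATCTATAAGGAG
Ski probe: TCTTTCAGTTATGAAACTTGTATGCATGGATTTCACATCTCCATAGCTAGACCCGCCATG
Dvl1 probe: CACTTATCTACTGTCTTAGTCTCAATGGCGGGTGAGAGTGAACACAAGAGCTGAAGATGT
Agrn probe: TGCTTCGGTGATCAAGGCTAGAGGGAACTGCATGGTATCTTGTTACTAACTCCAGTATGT
The LOC500594 probe, the last before the edge, consists largely of a run of 3-base repeats.

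The second set holds the promoters of the 3 marker genes and of Prxl2b, the gene farthest above the stretch. Each spans 250 bases before to 50 after the gene start, from RefSeq on assembly GRCr8, whose coordinates differ from those of rn4. They lie at chr5:170747507-170747806 (minus) for Prxl2b, chr5:171064908-171065207 (minus) for Ski, chr5:171738973-171739272 (plus) for Dvl1 and chr5:172052776-172053075 (minus) for Agrn. Capitals mark the GC box GGGCGG where it reads on the printed strand.
Prxl2b promoter: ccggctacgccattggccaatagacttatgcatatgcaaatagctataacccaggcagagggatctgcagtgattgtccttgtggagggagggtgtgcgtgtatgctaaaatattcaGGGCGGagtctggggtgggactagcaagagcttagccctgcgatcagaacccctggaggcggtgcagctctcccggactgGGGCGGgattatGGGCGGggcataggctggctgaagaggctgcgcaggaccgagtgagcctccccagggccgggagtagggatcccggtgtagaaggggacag
Ski promoter: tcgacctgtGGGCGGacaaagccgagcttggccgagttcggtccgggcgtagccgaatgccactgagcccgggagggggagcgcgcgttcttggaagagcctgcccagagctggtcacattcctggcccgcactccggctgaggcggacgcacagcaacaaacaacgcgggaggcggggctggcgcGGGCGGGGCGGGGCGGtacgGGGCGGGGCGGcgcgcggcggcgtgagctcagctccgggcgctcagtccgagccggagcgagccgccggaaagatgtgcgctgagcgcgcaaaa
Dvl1 promoter: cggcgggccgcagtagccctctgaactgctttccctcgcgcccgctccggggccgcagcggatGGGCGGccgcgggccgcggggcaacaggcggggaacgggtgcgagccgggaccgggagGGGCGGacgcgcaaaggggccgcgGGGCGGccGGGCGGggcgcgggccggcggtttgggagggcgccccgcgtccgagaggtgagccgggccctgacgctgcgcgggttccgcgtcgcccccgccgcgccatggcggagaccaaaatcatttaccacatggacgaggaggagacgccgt
Agrn promoter: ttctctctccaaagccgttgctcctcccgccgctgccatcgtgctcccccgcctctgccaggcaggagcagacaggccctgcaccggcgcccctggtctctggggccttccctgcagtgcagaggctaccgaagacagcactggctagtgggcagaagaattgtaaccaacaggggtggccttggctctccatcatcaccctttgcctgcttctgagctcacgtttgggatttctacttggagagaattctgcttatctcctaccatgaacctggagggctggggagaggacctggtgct
The motifs searched on both strands were GGGCGG, the E-box CACGTG, the TATA-box letters TATAAA and, for the interferon-stimulated response element, GAAA followed by any 2 bases and GAAA again. GGGCGG was found 0 times for Agrn, 3 times for Prxl2b, 4 times for Dvl1 and 6 times for Ski, with overlapping matches counted. No match to the other motifs was found in these windows. The letters CG occurred 9 times for Agrn, 13 for Prxl2b, 42 for Ski and 49 for Dvl1. The promoter set used here held an entry for 35 of the 52 genes of the stretch. GGGCGG was in 65.7% of these, in 63.2% of 68 promoters of the segment before the stretch, in 57.8% of 10138 promoters of all tested genes and in 33.1% of all 33469 promoters in the table. The median CG count was 22 in the stretch, 24 before it and 20 over tested genes. The promoters of the stretch were thus near those of tested genes in these letters. CACGTG was in 14.3%, TATAAA in 2.86% and the interferon element in 0% of the stretch promoters, against 9.11%, 8.05% and 3.304% over tested genes. The promoter set held no entry for Isg15, the interferon-induced gene of the stretch described below, so Isg15 was not searched for any motif. The 0% rests on the 35 promoters alone.

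One array stood apart from the others. P200 replicate 4 had the lowest 75th percentile of processed signal, 979 on a range up to 1869 over the 8 arrays. Its median over the 146 measured genes of the segment lay 0.26 above the P20 mean, against 0.08, 0.10 and 0.09 on P200 replicates 1, 2 and 3. The part of lower signal on this array in that offset was not tested, and values without it are given where they bear on a result. The 8 arrays lie on 1 slide, with 1 P20 and 3 P200 arrays in one row and 3 P20 and 1 P200 arrays in the other, so values are also given within each row.

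Along the segment the change was flat and then stepped up near the chromosome end. A single change point, placed where it gave the least sum of absolute deviations from the median on either side, fell at the Nphp4 probe at 169797302. The last gene before it was LOC500594, 108 kb away, and the next tested gene beyond Nphp4 was C5h1orf174 at 170747549, so the edge is bounded by sparse probes. From Nphp4 to the Noc2l probe ending at 173081317 the raised stretch spanned 3.28 Mb and held 116 probes for 92 genes, of which 52 passed the filter. The median change of these 52 genes was 0.42, or 1.34-fold, with quartiles of 0.22 and 0.52, and 48 were above 0. Smim1, ENSRNOT00000019096, BQ781810, Tmem52 and C5h1orf159 passed the filter through P200 alone, and all were above 0. ENSRNOT00000038789 passed through P20 alone and was below 0. Where all 8 arrays had to be above background, the median was 0.42 and 44 of 47 genes were above 0. The 94 measured genes before the stretch had a median change of 0.01, and 49 of them were above 0. The 769 measured genes of chromosome 5 before position 160000000 had a median of 0.006, and all 15500 tested genes had 0.003. Over the whole segment the median was 0.12. The step in the median therefore lay inside the segment and not at its lower limit.

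**Figure D1:**
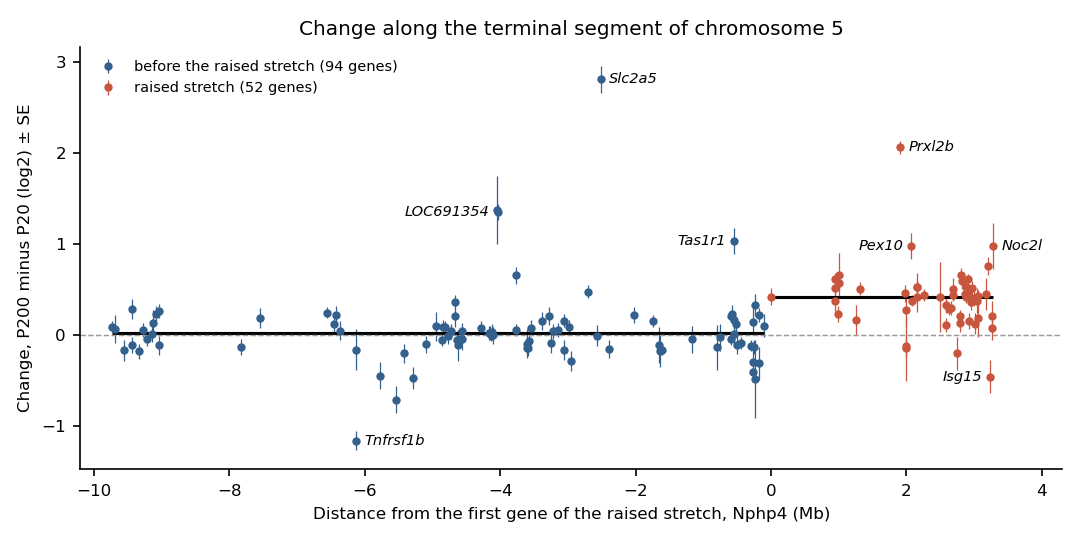
Change from P20 to P200 (log2, y axis, bars show SE, n = 4 arrays per group) of the 146 measured genes against distance in Mb from Nphp4 (x axis). Black lines are the medians, 0.01 for the 94 genes before the stretch and 0.42 for the 52 genes in it; Slc2a5 and Prxl2b lie far above their surroundings and Tnfrsf1b far below.

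Read from single arrays, the step was on every P200 array. The median of the 52 genes, less the P20 mean, was -0.05, -0.03, 0.03 and 0.06 on the P20 arrays and 0.37, 0.34, 0.41 and 0.49 on the P200 arrays (replicates 1 to 4). Means were 0.003 ± 0.054 at P20 and 0.40 ± 0.064 at P200 (SD, n = 4 each), and the groups did not overlap. The 94 genes before the stretch gave -0.02, -0.01, -0.02 and 0.18 on the P200 arrays, so replicate 4 was raised there as well. The stretch less the preceding genes came to 0.38, 0.35, 0.44 and 0.31 on the P200 arrays and lay between -0.03 and 0.03 on the P20 arrays. The change point fell at Nphp4 on P200 replicates 1, 2 and 3 and at Kcnab2, 2 genes earlier at 169621738, on replicate 4. The SD of the 4 positions was 87782 bases. All 4 were found against the same P20 mean, so this SD does not measure the uncertainty of the edge. Without P200 replicate 4 the median of the stretch was 0.39 and the edge remained at Nphp4. Within the slide row of 1 P20 and 3 P200 arrays the median was 0.50, with 50 of 52 genes above 0. Within the other row it was 0.36, with 46 above 0, and the edge fell at Nphp4 in both rows.

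**Figure D2:**
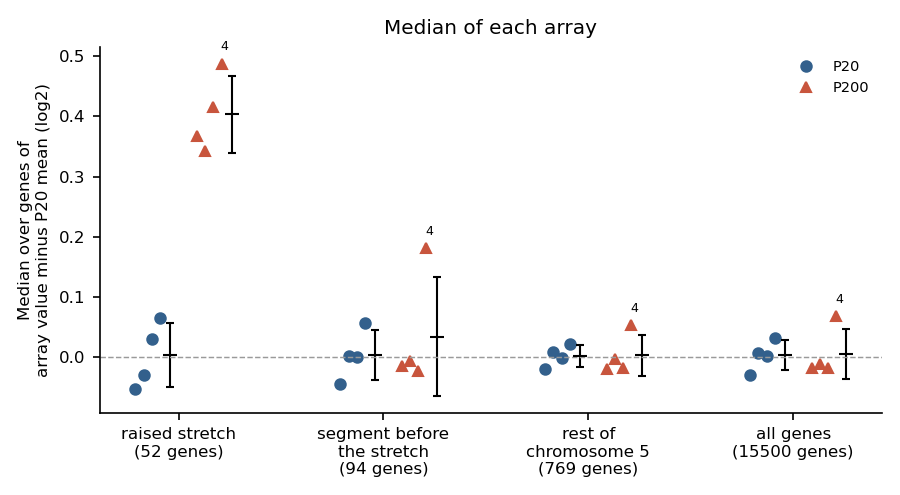
Median over genes of each array's value less the P20 mean (log2, y axis) for the raised stretch, the preceding genes of the segment, the rest of chromosome 5 and all tested genes; points are arrays, black marks are mean ± SD (n = 4), and 4 labels P200 replicate 4. All P200 arrays lie between 0.34 and 0.49 in the stretch, and in the preceding genes P200 replicate 4 is the highest, at 0.18.

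The limma fit over all 15500 genes called 36 genes of the segment higher and 4 lower at P200 (adjusted p under 0.05, Benjamini-Hochberg over all genes). The background was 5.86% of all tested genes called higher and 5.58% called lower. With each array centred on its median in place of the 75th percentile, the calls over all genes were 730 higher and 414 lower, against 909 and 865. In the segment, 47 genes had all 4 P200 arrays above all 4 P20 arrays and 5 had all 4 below, where 9.64% and 9.77% of all genes did so. The rule used this contrast, and nothing is read from these counts. Of the 36 genes called higher, 29 lay in the raised stretch and 7 before it, and the 4 called lower all lay before it. The arrays were separated upwards for 34 genes of the stretch and overlapped for 18, and separated upwards for 13, downwards for 5 and overlapped for 76 of the genes before it. Without P200 replicate 4 the fit called 26 genes of the stretch higher. No gene of the stretch was called lower in either of these fits.

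The rule's lower limit at 160000000 fell in flat ground. Just outside it the change was -0.09 for Necap2, -0.10 for Szrd1 and -0.03 for Spata21. Just inside it was 0.09 for Fbxo42, 0.06 for Arhgef19 and -0.17 for LOC100360708, and the arrays of the passages overlapped for all 6 genes.

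At the edge of the stretch the genes were as follows. Chd5, a chromatin remodeller of neural tissue, read -5.12, -4.87, -4.40 and -4.61 at P20 and -5.30, -5.24, -5.03 and -4.68 at P200, a change of -0.31 ± 0.18. Kcnab2, a beta subunit of voltage-gated potassium channels, read 3.43, 3.45, 3.48 and 3.58 at P20 and 3.67, 3.60, 3.65 and 3.87 at P200. Its P200 arrays all lay above its P20 arrays, by a change of 0.21 ± 0.08. A second, dimmer Kcnab2 probe at chr5:169626237-169626296 read -3.95 on average at P20 and -3.96 at P200, a change of -0.013 with overlapping arrays, so its probes disagreed. LOC500594 read between -0.02 and 0.16 at P20 and -0.07, 0.15, 0.04 and 0.52 at P200. Its change of 0.10 ± 0.12 came with overlapping arrays, of which P200 replicate 4 alone stood high. Nphp4, a protein of the base of the cilium, read -3.65, -3.36, -3.51 and -3.52 at P20 and -2.97, -3.30, -3.01 and -3.10 at P200, a change of 0.42 ± 0.09 with no overlap. C5h1orf174, a gene of unknown role, read 1.94, 1.88, 1.82 and 1.99 at P20 and 2.38, 2.34, 2.32 and 2.63 at P200, a change of 0.51 ± 0.08. Its neighbour ENSRNOT00000032825 changed by 0.61 ± 0.07. Chd5 and LOC500594 thus did not show the offset of Nphp4 and C5h1orf174 beyond it, and Kcnab2 showed a smaller one by its brighter probe only. Chd5 was dim and LOC500594 was read by a probe made largely of repeats, so they bound the edge only weakly.

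Among the signalling genes of the stretch, the 3 markers had no overlap between passages. Ski read -0.85, -0.69, -0.92 and -0.79 at P20 and -0.31, -0.39, -0.26 and -0.21 at P200, a change of 0.52 ± 0.07. Dvl1 read 0.12, 0.19, 0.11 and 0.31 at P20 and 0.65, 0.70, 0.68 and 0.66 at P200, a change of 0.49 ± 0.06. Dvl1 lay between the median and the upper quartile of the stretch, and Ski just above the upper quartile. Agrn read 0.45, 0.31, 0.21 and 0.45 at P20 and 0.86, 1.17, 1.17 and 1.25 at P200, a change of 0.76 ± 0.10 that was the highest among genes of the stretch with a mean signal above the 75th percentile of the array. A second Agrn probe, 2.27 kb away at chr5:173001730-173001789 and dimmer, read -3.46 on average at P20 and -3.51 at P200. Its change of -0.05, with overlapping arrays, disagreed with the brighter probe, and the mean of both was 0.35.

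Of all measured genes, 55.8% in the stretch and 7.45% in the segment before it were called higher, against 5.86% of all tested genes. The rule used this contrast, and nothing about a function is read from the counts in this and the following lists. Of the signalling and polarity list, 6 of 20 genes were measured in the stretch, with 4 called higher and a median change of 0.49. Besides Ski and Dvl1 these were Mib2, a ubiquitin ligase for Notch ligands (0.50 ± 0.13), and Acap3, which turns off the small GTPase Arf6 (0.51 ± 0.08). Gnb1, a G protein beta subunit, had a change of 0.33 ± 0.10 with separated arrays, and its other probes gave 0.31 and 0.29. The phospholipase Plch2 did not share the offset, at -0.12 ± 0.12. The 7 list members before the stretch, which include the kinases Mtor and Pik3cd, had a median of -0.01 and 0 calls.

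Genes of RNA processing had 6 measured members in the stretch, 5 called higher, with a median of 0.42. The kinase Cdk11b, which couples transcription with splicing, read between -0.21 and -0.03 at P20 and between 0.28 and 0.36 at P200 (0.44 ± 0.06). Its cyclin partner Ccnl2 changed by 0.42 ± 0.07, and Ints11, the endonuclease of the Integrator complex, by 0.42 ± 0.11. Wrap73, at 0.51 ± 0.07, is a centrosomal protein and not an RNA processing factor, although it stands in this list. Ssu72, a phosphatase of RNA polymerase II, had the smallest change, 0.20 ± 0.07. The 2 members before the stretch, Tardbp and Nol9, were at -0.01 and -0.11.

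All 3 measured mitochondrial genes of the stretch were called higher, where 55.8% of all its measured genes were. Atad3a, an ATPase of the inner membrane, read 1.42, 1.32, 1.47 and 1.63 at P20 and 2.06, 2.17, 2.04 and 2.21 at P200 (0.66 ± 0.08). Mrpl20, of the large mitochondrial ribosomal subunit, read between 3.19 and 3.26 at P20 and between 3.60 and 3.72 at P200 (0.44 ± 0.06). Aurkaip1, of the small subunit, changed by 0.53 ± 0.09. These are among the brightest probes of the stretch, and none overlapped between passages. The 5 mitochondrial genes before the stretch had a median of -0.04 and 0 calls, with the fusion gene Mfn2 at 0.09.

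In the list of peroxisomal, secretory and ubiquitin genes, 4 of 5 measured members in the stretch were called higher, with a median of 0.40, and 0 of 12 before it. Pex10, a ubiquitin ligase of peroxisomal import, read -4.55, -4.37, -4.52 and -4.26 at P20 and -3.81, -3.49, -3.38 and -3.12 at P200 (0.97 ± 0.14), near the upper end of the stretch. Its partner in that organelle, Pex14, lies before the stretch and was at 0.05. Ube2j2, a conjugating enzyme of the endoplasmic reticulum, changed by 0.40 ± 0.08, the Golgi calcium-binding protein Sdf4 by 0.43 ± 0.06 and the retrieval receptor Rer1 by 0.38 ± 0.06. Klhl17 was at 0.20 ± 0.17 with overlapping arrays.

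Of the metabolic enzymes, 2 of 3 in the stretch were called higher. Nadk, which makes NADP from NAD, read between 2.79 and 2.92 at P20 and between 3.03 and 3.21 at P200 (0.28 ± 0.06), and Pank4, of the pantothenate kinase family, changed by 0.46 ± 0.10. B3galt6, of glycosaminoglycan synthesis, had separated arrays and a change of 0.38 ± 0.14. Of 11 such enzymes before the stretch, only H6pd, a hexose-6-phosphate dehydrogenase of the endoplasmic reticulum, was called (0.47 ± 0.07), and the glycolytic Eno1 was at -0.16. The matrix and membrane genes measured in the stretch were Agrn and Mxra8, a cell adhesion protein of the immunoglobulin family (0.61 ± 0.06). Of transcription cofactors the stretch held Noc2l, an inhibitor of histone acetyltransferases, which read -1.89, -2.94, -2.31 and -1.67 at P20 and -1.17, -1.29, -1.46 and -1.02 at P200. Its change of 0.97 ± 0.25 had a wide error, with P20 replicate 2 low. The 10 measured cofactors before the stretch included 1 call, the zinc finger factor Casz1 (0.65 ± 0.09). The apoptotic nuclease Dffb (0.37 ± 0.11) was not called.

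**Figure D3:**
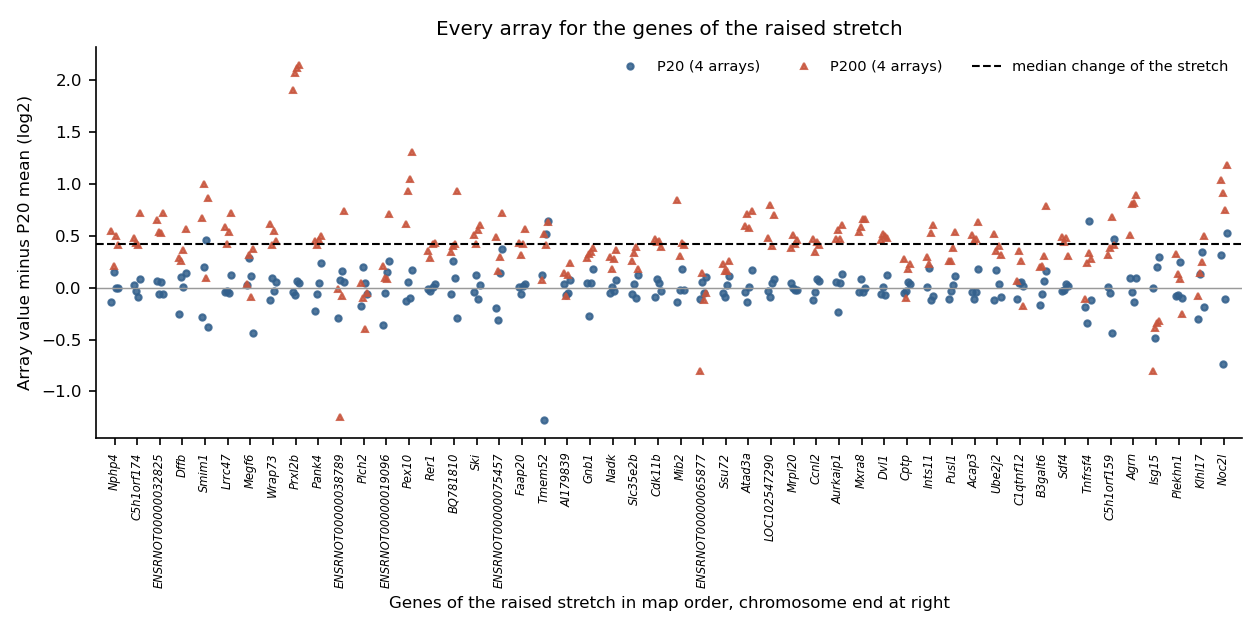
Value of each of the 8 arrays less the P20 mean of the gene (log2, y axis) for 50 of the 52 measured genes of the raised stretch in map order (x axis). The dashed line is the median change of 0.42; most P200 points lie around it, Prxl2b lies far above it, and the P200 arrays of Isg15 lie below 0.

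A departing gene was one whose change lay more than 3 scaled median absolute deviations from the median of the stretch, that is, outside -0.17 to 1.01. The 49 genes inside ran from -0.15 to 0.97, and 1 gene lay above and 2 below. Prxl2b, which encodes a prostamide and prostaglandin F synthase, read -3.49, -3.52, -3.39 and -3.40 at P20 and -1.54, -1.38, -1.32 and -1.30 at P200. Its change of 2.06 ± 0.07, or 4.18-fold, was apart from both tested neighbours, with Wrap73 before it at 0.51 and Pank4 after it at 0.46. With the background re-estimated by normexp its change was 1.63, and it was 1.80 from the deposited value table.

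Isg15, a ubiquitin-like protein induced by interferon, went the other way. It read 1.25, 0.76, 1.46 and 1.55 at P20 and 0.45, 0.87, 0.91 and 0.94 at P200. Its change was -0.46 ± 0.18, and P20 replicate 2 lay below 3 of the P200 arrays. It was not called in the fit with all arrays, and was called lower without P20 replicate 2 (change of -0.62) and with normexp (-0.46). Its neighbours on the map were Agrn at 0.76 and Plekhn1 at 0.07. The dim transcript ENSRNOT00000065877 was at -0.21 ± 0.18, and its P200 arrays read -5.43, -4.49, -4.74 and -4.68 against -4.74 to -4.52 at P20, so replicate 1 alone was low.

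Further genes of the stretch had little change without passing the limit. Plekhn1 was at 0.07 ± 0.13, AI179839 at 0.10 ± 0.08, C1qtnf12 at 0.12 ± 0.11, Cptp, a ceramide-1-phosphate transfer protein, at 0.15 ± 0.09, and Megf6 at 0.16 ± 0.17. Tnfrsf4, the receptor OX40 of activated T cells, was dim and at 0.18 ± 0.21. The passages overlapped for all 6 of these genes. The other TNF receptor genes of the stretch, Tnfrsf14 and Tnfrsf18, did not pass the filter. In all, 40 named genes of the stretch did not pass it, among them the p53 relative Tp73, the kinase Prkcz, the Notch target Hes5, the GABA receptor subunit Gabrd and the matrix genes Mmp23 and Vwa1.

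**Figure D4:**
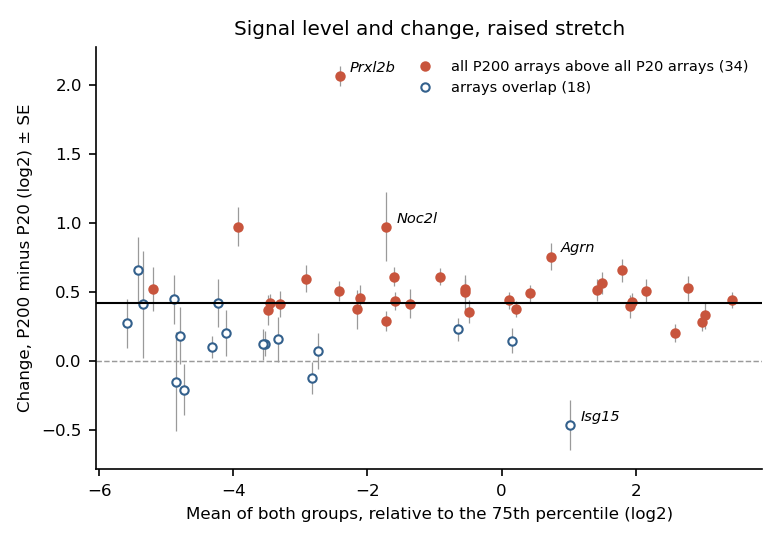
Change (log2, y axis, bars show SE, n = 4 per group) against the mean of both groups relative to the 75th percentile (log2, x axis) for the 52 genes of the raised stretch. The 34 genes with separated arrays and the 18 with overlapping arrays are marked; the overlapping genes lie mostly at low signal, and Isg15 is the bright gene below 0.

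Among the 52 measured genes the offset was of similar size along the stretch and over the range of signal. The 26 brighter genes had a median of 0.44, with 23 separated upwards, and the 26 dimmer ones had 0.37, with 11. Genes read from the plus strand had a median of 0.43 (32 genes) and those from the minus strand 0.37 (20 genes). Spearman's rho over the 52 genes, which share the same arrays, was 0.20 between change and mean signal, -0.13 between change and map position and -0.29 between change and the GC content of the probe. The median GC content of the probes was 45.0% in the stretch, 45.0% before it and 43.3% over all genes. The 14 further probes of measured genes had a median of 0.35, 13 of them above 0. The 50 probes of the stretch that did not pass the filter had a median of 0.17, on signals near background. With no background filter the median of all genes was 0.10, so an offset of the size above was not seen in these probes. Of the 10 genes with several passing probes in the stretch, the probes shared their sign in 9, with Agrn the exception.

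The map order in the stretch was checked against RefSeq on GRCr8. The 44 genes of the stretch found there lay on chromosome 5, with 0 on another chromosome, and the rank correlation of the 2 orders was 0.9997. RefSeq lists 73 protein-coding genes from the first gene of the stretch to the chromosome end, of which 69 were on the array and 45 were tested. One of these, Tprg1l, has no map position in the array files and so was used neither for the segment nor for its edge. It read 4.21, 4.17, 4.27 and 4.29 at P20 and 4.73, 4.57, 4.64 and 4.74 at P200. Its change of 0.43 ± 0.06 (limma, Benjamini-Hochberg adjusted p = 0.00283 over all genes) was higher on 4 of 4 P200 arrays than on any P20 array. Of 29 genes chosen as copies of member genes elsewhere in the genome, such as Dvl2, Dvl3, Skil and Gnb2, 27 were measured, with a median change of 0.02. Of these 27, 3 were called higher and 2 lower, where 5.86% and 5.58% of all tested genes were. Nothing is read from these counts.

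Before the stretch the median was near 0, and the larger changes came from a few genes, some of them next to each other. The genes below were singled out after their values were seen, apart from Tnfrsf1b. Slc2a5, a fructose transporter, read -4.15, -4.05, -4.54 and -4.50 at P20 and -1.68, -1.59, -1.54 and -1.19 at P200, a change of 2.81 ± 0.15 (7.003-fold) and the largest of the segment. LOC691354 was at 1.35 ± 0.09, between the transcript ENSRNOT00000031978 at 1.37 ± 0.38 and Casz1 at 0.65. ENSRNOT00000031978 was not called. It was above background on 3 P20 arrays and 4 P200 arrays, so it entered the fit through P200 alone. Tas1r1, a subunit of the umami taste receptor, was at 1.03 ± 0.14. The arrays of LOC691354, Tas1r1 and Slc2a5 were separated between passages. The remaining genes called higher, besides Casz1 and H6pd, were XR_146008 (0.36) and ENSRNOT00000021054 (0.24). Tnfrsf1b, a receptor for tumour necrosis factor, read -2.63, -2.81, -2.86 and -2.64 at P20 and -4.03, -4.05, -3.67 and -3.85 at P200, a change of -1.16 ± 0.10 and the lowest of the segment. The next measured genes after it were LOC102551014 at -0.45, which was not called, and LOC100910223 at -0.71, which was called lower. Both entered the fit through P20 alone, with 3 P200 arrays above background for LOC102551014 and 2 for LOC100910223. The other genes called lower were LOC102557083 (-0.47) and LOC103695279 (-0.41).

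Set against the rest of the genome, runs of genes with a like offset were few. In 574 windows of 25 consecutive tested genes, 15 had a median change over 0.30. Of these, 2 lay on chromosome 5 and were the last windows before its end, with medians of 0.42 each. The other 13 lay on chromosome 7, with the highest at 0.43. Chromosome 7 as a whole had a median change of 0.16 over 931 genes. Of these, 260 were called higher and 35 lower, where 5.86% and 5.58% of all tested genes were. The difference between the end of chromosome 5 and the windows of chromosome 7 was not tested.

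**Figure D5:**
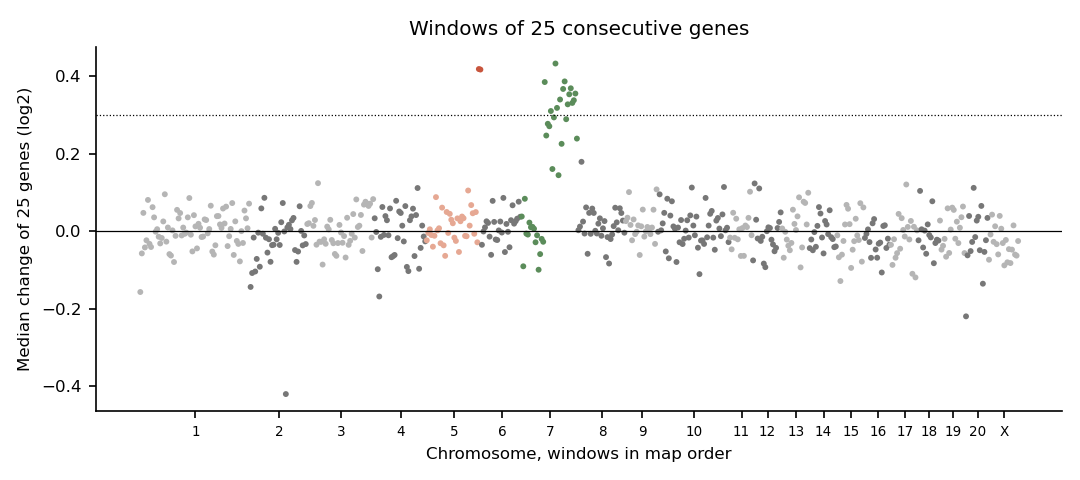
Median change (log2, y axis) of 574 windows of 25 consecutive tested genes in map order by chromosome (x axis). Chromosome 5 is shown in light red with its last 2 windows in dark red, chromosome 7 in green and the others in grey; the dotted line marks 0.30, which is passed by 2 windows on chromosome 5 and 13 on chromosome 7.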

How the data were processed

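The deposited scanner files give spot intensity on a linear scale. The authors extracted the images with Agilent Feature Extraction (version 11.0.1.1 in the submitters' processing notes). Per the file headers, this corrected background and spatial trends array by array, and arrays were not normalized to each other. The deposited value table holds raw spot intensity of the same arrays, and its P200 columns 1, 2, 3 and 4 equal scanner files 2, 3, 4 and 1. Replicates are numbered as in the scanner files.

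An array holds 62976 spots, 4259 of them controls. Between 51.0% and 54.5% of spots were well above background, 0 were saturated, and precision is limited by how many arrays there are. Outlier spots were left out, log2 intensity was computed from the deposited processed signal, spots of a probe were averaged, and the array's 75th percentile was subtracted. 84 probes that lacked a usable spot on at least 1 array were dropped. Of 45598 probes, 19458 were well above background on all 4 arrays of at least 1 group, and the brightest probe stood for each of 15500 genes. Names came from RefSeq (GRCr8) for 23863 probes through the accession, for 5124 through the symbol and for 351 through a synonym, and 16260 kept the name in the files. Map positions are rn4, from the files, and no rn4 genome was used here.

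P200 was compared with P20 by limma 3.58.1 in R 4.3.3 (lmFit, eBayes, no covariate, Benjamini-Hochberg over all genes), tested on simulated data. The edge search ran over chromosome 5 from 140000000 with at least 10 genes on each side. The segment, its members, the 11 lists (159 entries) and the rules were chosen with earlier results of these data known. Named genes were the markers, genes departing from the stretch, 3 genes on each side of 160000000 and of the edge, and up to 4 members per list with the largest change. All other genes given with values, in the list paragraphs and among genes of little change too, were chosen after their values were seen. Alternatives covered centring, quantile and normexp normalization, the value table, the background filter, probes per gene, outlier spots, blocks, single arrays left out and the edge rule. Some genes are not reported here.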

Additional observations from a re-analysis of the deposited data

Results flagged for a closer look

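Of 100 groups of 4 arrays examined, 3 had 1 array farther from the others than Dixon's 95% limit allows, where chance marks about 1 in 20 groups. For Isg15 at P200, replicate 1 read 0.45 and the others 0.87 to 0.94. For Icmt, a methyltransferase of prenylated proteins that lies before the stretch, P20 replicate 4 read -0.93 and the others -1.010 to -1.003. Icmt at P200 was not flagged, with replicate 2 at -2.01 and the others between -1.21 and -0.82. The median over the whole segment on P200 replicate 4 was 0.26 above the P20 mean, and 0.08 to 0.10 on the other P200 arrays. The groups examined did not cover every gene of the segment. Rpl22, before the stretch, is not among the 3, yet its P200 replicate 2 read 3.55 and the others 5.55 to 5.63. Nothing was tested as a cause of these.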

How the results depend on the processing

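The offset of the stretch kept its sign, with 47 to 49 of 52 genes above 0 in the settings that keep these genes, 44 of 47 where all 8 arrays had to be above background, 61 of 66 probes taken singly and 75 of 92 genes with no background filter. Its median was 0.30 with normexp and 0.28 with no background filter, where the median of all genes was 0.10. The edge moved to 167.094 Mb (H6pd) with no filter and to 169.622 Mb (Kcnab2) with a running median of 15 genes over 0.20. Measured from the edge, the segment's median is that of the stretch, 0.42. Genes called higher in the segment fell from 36 to 19 with no filter, which tests 35771 genes. Those called lower fell from 4 to 1 with the array median and to 2 with quantile normalization, the value table and slide row as a block. Over all genes, no filter gave 384 higher and 410 lower, the array median 414 lower and slide row 574 lower. Leaving out 1 array gave 565 to 843 lower, the lowest without P20 replicate 3. Genes above the stretch numbered 4 with no filter (Slc2a5, Prxl2b, Morn1 and Tas1r3), 4 with every probe, 3 with 2 scaled deviations, and 1 to 3 with 1 array left out (Noc2l added without P20 replicate 1 or 4, Noc2l and Pex10 without P200 replicate 1 or 2). Those below numbered 1, Isg15, with quantile normalization, normexp, the value table or without P20 replicate 2 or 4 or P200 replicate 3, 4 with 2 scaled deviations, and 1 to 3 over single arrays left out. With no filter they were Ccdc27 and LOC102551562, and Isg15 was not among them. Agrn reversed to -0.051 by its second probe. Of 873 values for named genes under these settings, this 1 was counted as reversed and 12 as moved by more than the spread between replicates. The count of reversals does not take in every change of sign, as the second Kcnab2 probe gave -0.013. The cause was not tested.

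Replicate numbers did not pair the samples: deviations of same-numbered arrays correlated at 0.03, 0.13, -0.003 and 0.28 over genes, and 1 of 4 P200 arrays correlated best with its own number. With the replicate block the fit called 30 genes of the segment higher and 3 lower, and 770 and 713 over all genes. Signal near background limits the 146 genes of the segment that were not fitted.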
